A study of Homo sapiens with 36 samples.

Results

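THP-1 is a human monocytic leukaemia cell line, and the comparison described here set THP-1 cells carrying a lentiviral short hairpin RNA against NR4A3 (shNR4A3) beside THP-1 cells carrying a lentiviral non-target hairpin (shNT). Its members were the 3 libraries titled shNR4A3 and the 3 titled shNT that were kept at 5% CO2 and given LPS, which is 6 of the 36 libraries of the series. All 6 cultures spent 4 h at 5% CO2 in buffered DMEM and received 2.5 µg/mL LPS for the final 2 h. Poly(A)-selected RNA was sequenced, and a count of reads per gene was analysed for each library. The same pair of lines without LPS at 5% CO2, the same pair with LPS at 10% CO2, and THP-1 cells carrying a hairpin against NR4A2 (shNR4A2) with LPS at 5% CO2 served as the points of comparison, each with 3 libraries. The 3 shNT libraries at 10% CO2 without LPS were used, with those given LPS at 10% CO2, to define LPS-induced genes. Each hairpin was carried by 1 transduced line, so depletion of NR4A3 and any other difference between the shNR4A3 and shNT lines cannot be told apart.

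NR4A1, NR4A2 and NR4A3 are orphan nuclear receptors, transcription factors without a known physiological ligand whose activity follows mainly from how much of them is made. They are immediate early genes: LPS, the endotoxin of Gram-negative bacteria, signals through TLR4 in monocytes and induces them within hours together with cytokines, chemokines and the regulators that later end the response. NR4A receptors bind as monomers to a short DNA element called the NBRE, and they are best known in myeloid cells as restraints on NF-kB driven inflammation and as factors in myeloid differentiation.

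The 6 libraries held between 16171161 and 21602737 reads assigned to genes, and replicates of one group differed by more than counting noise (chi-square per degree of freedom of 9.13 to 22.0 over genes). Genes of promyelocytic and monocytic granules marked the cells as myeloid: ELANE, which encodes neutrophil elastase, was at 3434 to 4497 TPM (a level scaled by transcript length and by the total of the library) in the 6 libraries. Markers of other cell types were summed over each list. The 10 epithelial and fibroblast markers summed to between 2.21 and 2.82 TPM in shNR4A3 and between 2.54 and 3.55 TPM in shNT, the 12 erythroid and megakaryocyte markers to 5.04 to 8.04 TPM and 9.40 to 9.76 TPM with HBA1 and HBG1 at 0 in every library, and the 16 lymphoid markers to 53.3 to 70.0 TPM and 62.3 to 71.5 TPM with CD2 and MS4A1 at 0. In RNA from whole cultures, fewer cells of a type and less RNA per cell cannot be told apart.

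NR4A3 itself was lower in the shNR4A3 line. Its level was 17.0, 18.2 and 16.7 TPM in the 3 shNR4A3 libraries against 30.9, 32.3 and 31.9 TPM in the 3 shNT libraries, so the groups did not overlap. NR4A3 fell by 0.82 ± 0.08 on the log2 scale (standard error, n = 3 per group), a decrease of 43.4%, with an adjusted p of 0.000286 in edgeR's quasi-likelihood test. Without LPS the gene was nearly silent: 20, 21 and 17 reads were counted in shNT and 5, 3 and 1 in shNR4A3. There it fell by 2.47 on the log2 scale (edgeR adjusted p = 0.00982), and with LPS at 10% CO2 it fell by 1.11 (edgeR adjusted p = 0.000321). The difference between the effects with and without LPS at 5% CO2 was 1.65 ± 0.38 on the log2 scale (unadjusted p = 0.000496, edgeR adjusted p = 0.582 over all genes).

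**Figure D1:**
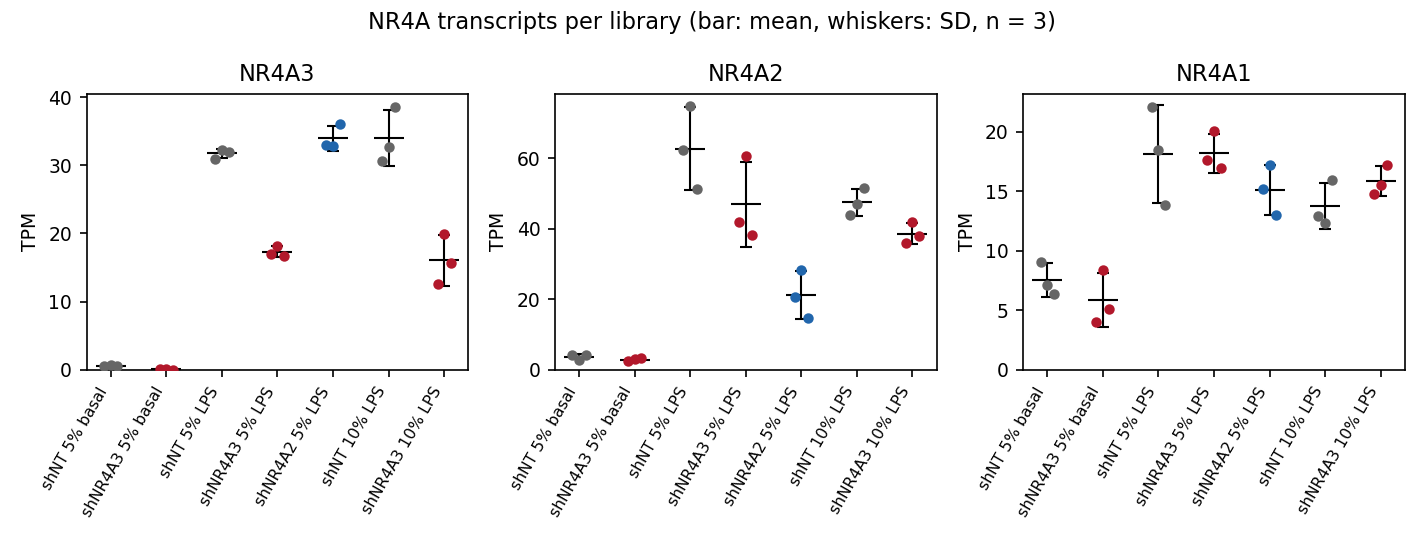
Level in TPM of NR4A3, NR4A2 and NR4A1 in each library (points), with the mean (bar) and SD (whiskers) of 3 libraries per condition, for shNT (grey), shNR4A3 (red) and shNR4A2 (blue). With LPS at 5% CO2, NR4A3 sits between 16.7 and 18.2 TPM in shNR4A3 and between 30.9 and 32.3 TPM in shNT.

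Neither of the other receptors of the family was called. NR4A2 stood at 41.8, 60.7 and 38.3 TPM in shNR4A3 and at 62.2, 74.7 and 51.3 TPM in shNT, with overlapping groups. Its log2 change of -0.37 did not pass the test (edgeR adjusted p = 0.223) but did when the replicate number was a block (edgeR adjusted p = 0.00118). NR4A1 was at 17.6, 20.0 and 16.9 TPM against 22.1, 18.5 and 13.8 TPM, also overlapping, and its log2 change was 0.06 (edgeR adjusted p = 0.851).

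Over all genes, 574 rose and 384 fell in shNR4A3 relative to shNT at an edgeR adjusted p under 0.05, which is called changed from here on. These 958 genes were 5.41% of the 17720 tested, 3.24% higher and 2.17% lower, and their median fold was 1.70. A change of at least 2-fold was found for 187 of the higher and 135 of the lower genes, and of at least 4-fold for 26 and 28. None of the 958 had overlapping groups, so a lack of overlap given below for a called gene adds nothing to its call. Groups were without overlap in 25.7% of all tested genes. With library size as the only scaling 929 genes were called, and 50.2% of them were higher, beside 59.9% of the 958. Same-numbered libraries of both lines deviated together, and with the replicate number as a block 3312 genes were called (18.7%), 1863 higher (10.5%) and 1449 lower (8.18%). The count also rested on single libraries. It was 419, 529, 557 and 462 without shNT replicate 2, shNT replicate 3, shNR4A3 replicate 1 or shNR4A3 replicate 3, and 1649 without shNR4A3 replicate 2.

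**Figure D2:**
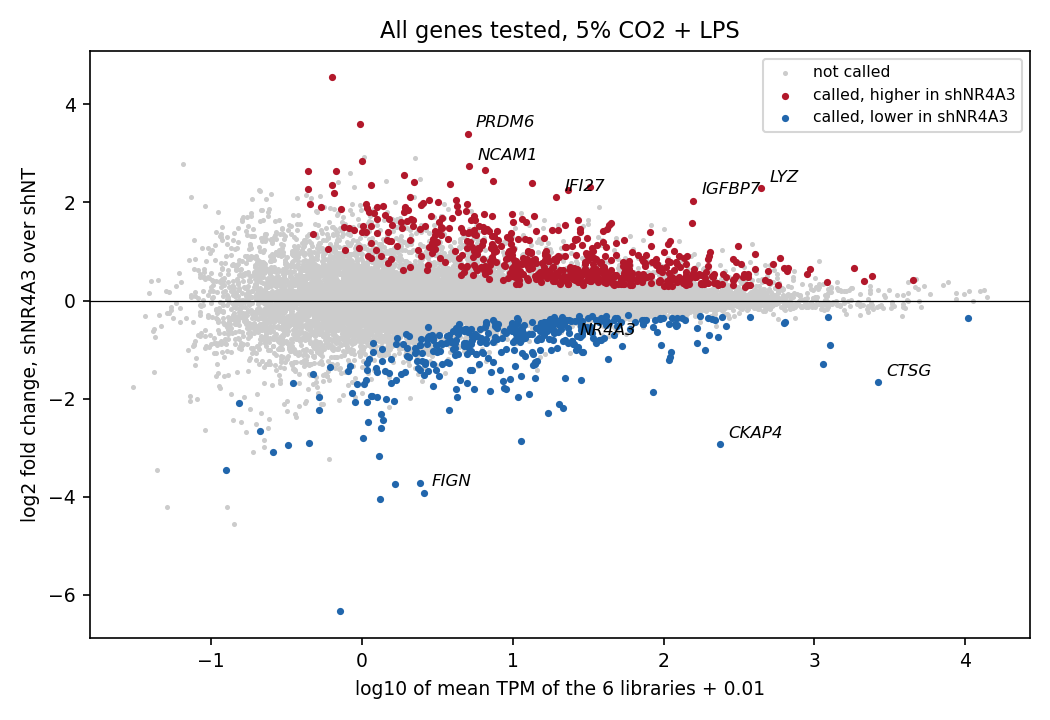
Log2 fold change of shNR4A3 over shNT with LPS at 5% CO2 against the mean level of the 6 libraries (log10 of TPM + 0.01), 1 point per tested gene. The 574 genes called higher (red) and 384 called lower (blue) lie on both sides of 0, with LYZ (2.29) and CKAP4 (-2.93) far from the bulk of the genes at their level.

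Of 19 tested markers of the monocytic lineage, 6 rose, 1 fell and 12 were not called, beside 3.24% higher and 2.17% lower of all tested genes, and the median log2 change was 0.55 against -0.01 over all tested genes. LYZ, which encodes the secreted antibacterial enzyme lysozyme, was at 844, 634 and 719 TPM in shNR4A3 and at 159, 155 and 156 TPM in shNT. Every shNR4A3 library was far above every shNT library, and LYZ was 4.89-fold higher (log2 change 2.29 ± 0.13, edgeR adjusted p = 5.15e-06). CD36, a scavenger receptor for lipids, was at 15.1, 9.86 and 11.9 TPM against 2.96, 2.37 and 1.86 TPM. VCAN, a matrix proteoglycan typical of classical monocytes, was at 21.6, 22.9 and 22.9 TPM against 4.91, 4.76 and 3.72 TPM. Neither gene had overlapping groups, and both were over 4-fold higher (log2 change 2.43 ± 0.22 and 2.39 ± 0.10, edgeR adjusted p = 0.000373 and 6.32e-07). CSF1R, the receptor for macrophage colony-stimulating factor, rose by 1.10 ± 0.12 on the log2 scale (edgeR adjusted p = 0.000529). The remaining members that rose, SPI1 among them, lost their calls without shNT replicate 2 or 3 or shNR4A3 replicate 1 or 3 (edgeR adjusted p 0.076 to 0.132). A member other than SPI1 also lost its call without shNR4A3 replicate 2 (edgeR adjusted p = 0.0521).

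CTSG was the 1 monocytic marker that fell. It encodes cathepsin G, a protease of immature granules, and stood at 899, 1479 and 1301 TPM in shNR4A3 and at 2869, 4365 and 4804 TPM in shNT, without overlap (log2 change -1.67 ± 0.24). CTSG was singled out after its values were seen. The edgeR adjusted p of CTSG was 0.0141, and 0.0584 and 0.0527 without shNT replicate 2 or shNR4A3 replicate 3. The genes for other proteases of the same granules were not called: ELANE had a log2 change of 0.01, AZU1 of -0.10 and PRTN3 of -0.29. The list as a whole summed to 10711 to 12956 TPM in shNR4A3 and 12575 to 15978 TPM in shNT. With the replicate block 10 members were higher and 3 lower, beside 10.5% and 8.18% of all tested genes.

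Transcription factors that steer monocyte development were higher in part. Of 24 tested haematopoietic transcription factors, 3 rose (12.5%, beside 3.24% of all tested genes) and none fell (beside 2.17%). IRF8, which directs monocyte and dendritic cell fate, was at 347, 413 and 364 TPM in shNR4A3 and 231, 252 and 194 TPM in shNT, and the lowest shNR4A3 library exceeded the highest shNT library (log2 change 0.79 ± 0.09, edgeR adjusted p = 0.000452). SPI1, which encodes the myeloid master regulator PU.1, and BCL6, a transcriptional repressor, rose by 0.55 and 0.80 on the log2 scale (edgeR adjusted p = 0.0244 and 0.0309). Those calls were lost without shNT replicate 2 or 3 or without shNR4A3 replicate 1 or 3, with adjusted p from 0.0843 to 0.0991 for SPI1 and from 0.0698 to 0.11 for BCL6. With the replicate block 12 factors were higher and 3 lower, beside 10.5% and 8.18% of all tested genes.

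Genes of macrophage and dendritic cells gave 4 higher (26.7%) and none lower of 15 tested, with a median log2 change of 1.00. The shares of all tested genes were 3.24% and 2.17%. CD83, a maturation marker of dendritic cells, was at 911, 706 and 812 TPM in shNR4A3 against 558, 545 and 500 TPM in shNT, without overlap (log2 change 0.66 ± 0.11, edgeR adjusted p = 0.00664). FSCN1, which encodes the actin-bundling protein fascin, was at 427, 391 and 455 TPM against 307, 320 and 289 TPM, and also rose (log2 change 0.53, edgeR adjusted p = 0.00548). CCR7, the chemokine receptor that guides mature dendritic cells to lymph nodes, and MSR1, a macrophage scavenger receptor, were low, at 1.51 to 3.40 TPM and 0.57 to 0.77 TPM in shNR4A3. Their log2 changes of 1.59 and 1.35 (edgeR adjusted p = 0.0286 and 0.0391) did not pass without any 1 of shNT replicates 1 to 3 or shNR4A3 replicates 1 and 3, with adjusted p between 0.0501 and 0.158. C1QB, CD1B, CLEC9A, FABP4 and MRC1 were too low to test. The summed level of all 20 markers was 2531 to 2892 TPM in shNR4A3 and 2693 to 2737 TPM in shNT, with overlapping groups. With the replicate block 8 members were higher and 2 lower, beside 10.5% and 8.18% of all tested genes.

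Interferon and antiviral genes formed the list with the most calls. Interferons bind receptors that activate a transcription factor complex, which binds a promoter element called the ISRE. Of 47 tested genes, 27 rose, none fell and 20 were not called, which is 57.4% of the list beside 3.24% of all tested genes called higher. The median log2 change was 0.59, and 46 of the 47 changes were above 0. The summed level was 2677 to 3064 TPM in shNR4A3 and 1918 to 2263 TPM in shNT, and the groups did not overlap. The calls of 12 of the 27 rested on the presence of every library. The count was 15 without shNT replicate 2 and 16 without shNR4A3 replicate 3. With the replicate block 39 members were higher and 1 lower, beside 10.5% and 8.18% of all tested genes.

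The largest change of the list was in IFI27, a small mitochondrial and nuclear envelope protein induced by type I interferon. It was at 31.6, 31.3 and 31.3 TPM in shNR4A3 and at 7.90, 6.86 and 7.87 TPM in shNT, so replicates lay close together and the groups stood far apart (4.32-fold, log2 change 2.11 ± 0.11, edgeR adjusted p = 2.64e-06). SIGLEC1, a sialic acid receptor of interferon-activated monocytes, was at 9.42, 12.1 and 12.6 TPM against 4.46, 4.87 and 3.98 TPM (log2 change 1.41 ± 0.13, edgeR adjusted p = 0.000129). TRIM22, an antiviral ubiquitin ligase, was at 8.01, 10.8 and 10.3 TPM against 4.40, 5.42 and 4.46 TPM (log2 change 1.08, edgeR adjusted p = 0.00108). Neither gene had overlapping groups. CMPK2, a mitochondrial nucleotide kinase, rose from 28.8, 30.2 and 26.8 TPM to 48.2, 44.3 and 47.3 TPM (log2 change 0.77, edgeR adjusted p = 0.000837).

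The further members described here were singled out after their values were seen. Among the effectors, IFIT3, which binds viral RNA in complex with other IFIT proteins, was at 86.6, 61.2 and 80.9 TPM against 33.9, 32.0 and 35.2 TPM. Its log2 change was 1.24 (edgeR adjusted p = 0.00111), and IFIT2 of the same complex changed by 1.27 (edgeR adjusted p = 0.00765). The synthetases of the RNA-degrading pathway, OAS1, OAS2 and OAS3, rose by 0.92, 0.84 and 0.59 on the log2 scale. ISG15, a ubiquitin-like modifier, was at 177, 151 and 221 TPM against 90.3, 101 and 116 TPM. Its call (log2 change 0.90, edgeR adjusted p = 0.0123) was lost without shNT replicate 1, shNT replicate 2 or shNR4A3 replicate 1, with adjusted p of 0.0515, 0.0659 and 0.0503. Among the regulators, IRF7 rose by 0.71 and IRF1 by 0.53 on the log2 scale (edgeR adjusted p = 0.00784 and 0.00341). IFNB1, the interferon beta gene itself, was at 3.44, 4.41 and 2.34 TPM against 2.03, 3.99 and 2.81 TPM, and the groups overlapped (log2 change 0.24 ± 0.39, edgeR adjusted p = 0.766).

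**Figure D3:**
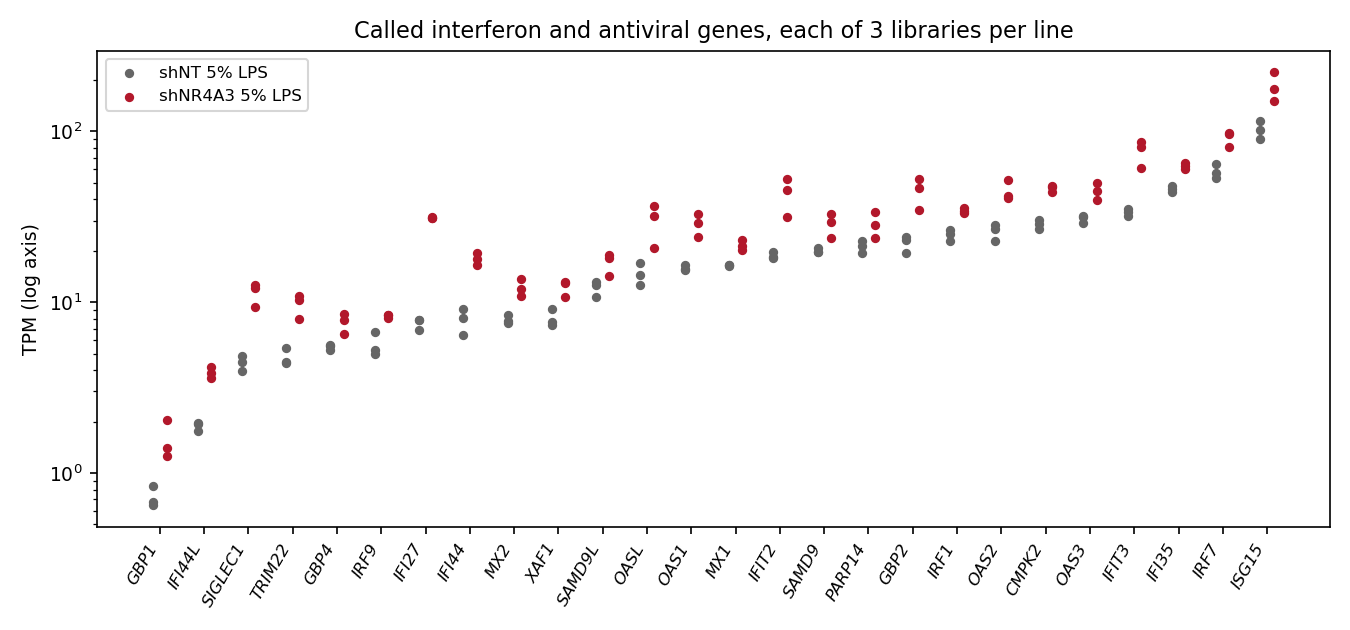
Level in TPM (log axis) of 26 of the 27 called interferon and antiviral genes in each library, shNT in grey and shNR4A3 in red, with 3 points per line and gene, ordered by the level in shNT. For every gene plotted the red points lie above the grey points, with the widest gap for IFI27.

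Because these genes moved together, their promoters were read from RefSeq (GRCh38.p14), from 250 bases before to 50 bases after the start of each gene. A promoter was found for 12091 of the tested genes. The ISRE core, GAAA followed after any 2 bases by another GAAA and searched on both strands, was present in 2.89% of all these promoters and in 22 of the 35 promoters of the interferon list (62.9%). Within the list it was present in 11 of 18 promoters of called genes (61.1%) and in 11 of 17 promoters of genes not called (64.7%). The 4 stretches of 80 bases from called genes below are written 5′ to 3′ on the strand of the gene, with each match in capitals and the reverse complement in capitals where the match is on the other strand. They are chr14:94110606-94110685 for IFI27, chr10:89327840-89327919 for IFIT3, chr1:78649709-78649788 for IFI44 and chr1:1013355-1013434 for ISG15.
IFI27: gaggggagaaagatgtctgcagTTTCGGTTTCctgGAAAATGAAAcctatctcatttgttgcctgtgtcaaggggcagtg
IFIT3: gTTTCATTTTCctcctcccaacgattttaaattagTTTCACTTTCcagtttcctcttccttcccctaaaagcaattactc
IFI44: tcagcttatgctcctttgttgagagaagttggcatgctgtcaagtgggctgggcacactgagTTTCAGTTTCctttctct
ISG15: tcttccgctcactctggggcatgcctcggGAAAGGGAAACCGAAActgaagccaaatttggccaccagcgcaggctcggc

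The NBRE, AAAGGTCA on either strand, was found in 0.777% of all promoters, in 3 of the 414 promoters of genes higher in shNR4A3 (0.725%) and in none of the 295 promoters of lower genes. The ISRE core was in 25 of the 414 promoters of higher genes (6.04%) and 1.36% of those of lower genes, beside 2.89% of all promoters. Of those 25 promoters, 11 belonged to called genes of the interferon list, so the 6.04% is in part that list again. LGALS9, which encodes the glycan-binding protein galectin-9 and rose by 0.46 on the log2 scale (edgeR adjusted p = 0.00374), was one of the 3 and was singled out for its NBRE, shown in capitals at chr17:27631003-27631082.
LGALS9: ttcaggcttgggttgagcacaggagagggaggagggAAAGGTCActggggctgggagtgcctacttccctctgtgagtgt

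None of 7 core products of the LPS response was called by edgeR without the replicate block. TNF was at 1964, 1712 and 1929 TPM in shNR4A3 and at 2221, 2168 and 1964 TPM in shNT. CXCL8, the neutrophil chemokine interleukin-8, was at 6281, 4012 and 4115 TPM against 5932, 5139 and 4170 TPM. For CXCL8 the groups overlapped, for TNF the highest shNR4A3 and the lowest shNT library differed by less than 1 TPM, and neither log2 change passed the test (-0.12 ± 0.09 and -0.01 ± 0.23, edgeR adjusted p = 0.507 and 0.983).

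IL6 and IL1B differed by their level within each replicate number. IL6 was at 12.5, 4.95 and 6.96 TPM in shNR4A3 and at 3.62, 1.31 and 2.25 TPM in shNT, so replicate 1 was highest in both lines and every shNR4A3 library was above every shNT library. The log2 change of 1.83 ± 0.45 had an edgeR adjusted p of 0.0544, and of 2.3e-05 with the replicate block. IL1B was at 6508, 4415 and 5054 TPM against 4935, 3686 and 3715 TPM, with overlapping groups. Its log2 change was 0.44 ± 0.20 (edgeR adjusted p = 0.262, and 0.000494 with the block). CCL2, a monocyte chemoattractant, and CXCL10, an interferon-induced chemokine, had log2 changes of -0.28 and 0.73 (edgeR adjusted p = 0.706 and 0.425), which passed with the block (adjusted p = 0.0115 and 0.0219).

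Of 20 tested cytokines, 1 rose (5.0%) and 1 fell, beside 3.24% higher and 2.17% lower of all tested genes. With the block 9 were higher and 2 lower, beside 10.5% and 8.18%. LIF, a cytokine of the IL-6 family, was at 8.29, 8.70 and 5.74 TPM in shNR4A3 and at 22.5, 22.0 and 14.5 TPM in shNT, without overlap (log2 change -1.32 ± 0.19, edgeR adjusted p = 0.00259). TNFSF13B, the B cell survival factor BAFF, rose from 2.85, 4.30 and 4.26 TPM to 8.46, 6.41 and 7.12 TPM (log2 change 1.01 ± 0.21, edgeR adjusted p = 0.0194). Its adjusted p was 0.0664, 0.057, 0.0789 and 0.063 without shNT replicate 1, shNT replicate 2, shNR4A3 replicate 1 or shNR4A3 replicate 3.

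Chemokines gave 2 lower genes (10.0%, beside 2.17% of all tested genes) and none higher (beside 3.24%) of 20 tested. With the block 5 were higher and 3 lower, beside 10.5% and 8.18%. CCL5, which attracts T cells and monocytes, was at 556, 449 and 544 TPM in shNR4A3 and 800, 704 and 729 TPM in shNT (log2 change -0.47 ± 0.11, edgeR adjusted p = 0.0385). CCL23, a chemoattractant of monocytes and resting T cells, was at 13.5, 20.8 and 17.7 TPM against 32.3, 35.2 and 31.4 TPM (log2 change -0.88 ± 0.18, edgeR adjusted p = 0.0144). Neither had overlapping groups. The call of CCL5 was lost without any 1 of the shNT replicates or shNR4A3 replicate 3 (adjusted p 0.0593 to 0.118), and that of CCL23 without shNT replicate 2, shNR4A3 replicate 1 or shNR4A3 replicate 3 (adjusted p 0.0541 to 0.0647).

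Along the signalling chain from TLR4 to NF-kB, 5.88% of the receptor and adaptor genes and 18.8% of the NF-kB genes were called higher. The share of all tested genes was 3.24%. Of 17 tested LPS receptor and adaptor genes, 1 rose: TAB2, an adaptor of the kinase TAK1, at 172, 121 and 158 TPM against 92.7, 92.2 and 96.0 TPM (log2 change 0.75, edgeR adjusted p = 0.0162). Of 16 NF-kB subunits and inhibitors, 3 rose and none fell. BCL3, an atypical IkB protein that binds p50 and p52, was at 91.5, 82.4 and 99.2 TPM against 65.0, 46.2 and 51.1 TPM, without overlap (log2 change 0.81 ± 0.14, edgeR adjusted p = 0.00856). NFKBIE, which encodes the inhibitor IkB epsilon, and TNIP2, an A20-binding inhibitor, changed by 0.47 and 0.42 (edgeR adjusted p = 0.0194 and 0.016). TAB2, NFKBIE and TNIP2 lost their calls without shNT replicate 1, shNT replicate 2 or shNR4A3 replicate 3, TAB2 also without shNT replicate 3 and NFKBIE also without shNR4A3 replicate 1 (adjusted p 0.052 to 0.0949). With the block 7 receptor genes and 11 NF-kB genes were higher and none lower, beside 10.5% higher and 8.18% lower of all tested genes.

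Early response factors were called higher in 9.09% of tested members and feedback regulators in 15.8%, beside 3.24% of all tested genes. JUNB and EGR2, of 22 tested AP-1 and early response factors, were at 512 to 548 and 102 to 112 TPM in shNR4A3 and at 376 to 466 and 80.9 to 88.6 TPM in shNT (log2 change 0.41 and 0.40, edgeR adjusted p = 0.0131 and 0.0171). Of 19 feedback regulators, 3 rose and 1 fell, and 2.17% of all tested genes were called lower. DUSP5, a phosphatase for ERK, was at 19.1, 18.3 and 20.6 TPM against 12.2, 12.1 and 11.3 TPM (log2 change 0.77 ± 0.13, edgeR adjusted p = 0.0046). DUSP2, a nuclear MAP kinase phosphatase, and ZFP36, which encodes the mRNA-destabilising protein tristetraprolin, changed by 0.64 and 0.44, and SOCS2, an inhibitor of cytokine receptors, by -0.88 (edgeR adjusted p = 0.0368, 0.0457 and 0.0361). JUNB was not called without shNT replicate 1, shNT replicate 3 or shNR4A3 replicate 3, and EGR2, DUSP2, ZFP36 and SOCS2 were each not called without at least 5 of the 6 libraries in turn (adjusted p 0.0539 to 0.146). With the block 10 early factors were higher and 2 lower, and 10 feedback regulators higher and 4 lower. The shares of all tested genes with the block were 10.5% higher and 8.18% lower.

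Of 30 tested antigen presentation genes, 5 rose (16.7%, beside 3.24% of all tested genes), none fell and 25 were not called. With the block 11 were higher, beside 10.5% of all tested genes. The 5 were all of MHC class II, whose molecules present extracellular peptides to helper T cells. CD74, the invariant chain that guides their assembly, was at 193, 164 and 167 TPM in shNR4A3 and at 104, 115 and 108 TPM in shNT. The groups did not overlap (log2 change 0.74 ± 0.10, edgeR adjusted p = 0.00138). HLA-DRA, the invariant alpha chain of HLA-DR, was at 46.5, 41.6 and 37.8 TPM against 24.8, 30.0 and 23.5 TPM (log2 change 0.75, edgeR adjusted p = 0.00993). HLA-DPA1 rose from 0.67, 0.75 and 0.45 TPM to 1.80, 1.82 and 2.04 TPM (log2 change 1.67, edgeR adjusted p = 0.00309). HLA-DRB1 and HLA-DRB5 changed by 0.50 and 0.54 (edgeR adjusted p = 0.0147 and 0.0326). The beta chain genes share long near-identical stretches, so reads can be split between them, and both lost their calls without shNT replicate 2 or 3 or shNR4A3 replicate 1 or 3 (adjusted p 0.0587 to 0.139). HLA-DRB5 was singled out after its values were seen.

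Inflammasome genes gave 4 higher (33.3%, beside 3.24% of all tested genes) and none lower of 12 tested. With the block 10 were higher, beside 10.5% of all tested genes. Inflammasomes are complexes that activate caspase-1, which matures IL-1 beta. CASP1, the gene for that caspase, was at 77.2, 55.8 and 55.4 TPM in shNR4A3 and at 35.8, 32.9 and 34.0 TPM in shNT (log2 change 0.94 ± 0.15, edgeR adjusted p = 0.00537). MEFV, which encodes the sensor pyrin, was at 53.7, 44.4 and 48.2 TPM against 32.4, 32.8 and 30.2 TPM (log2 change 0.68 ± 0.11, edgeR adjusted p = 0.00341). Neither gene had overlapping groups. CASP5, which senses intracellular LPS, was low and uneven, at 5.11, 1.12 and 3.47 TPM against 0.33, 0.57 and 0.81 TPM. NLRC4, an inflammasome protein of the response to bacterial flagellin, was at 1.22, 1.35 and 1.85 TPM against 0.72, 0.55 and 0.36 TPM. Their log2 changes were 2.56 ± 0.59 and 1.51 ± 0.35 (edgeR adjusted p = 0.0307 and 0.03). CASP5 was not called without any 1 of the shNT replicates, shNR4A3 replicate 1 or shNR4A3 replicate 3, and NLRC4 without shNT replicate 2 or 3 or shNR4A3 replicate 1 or 3 (adjusted p 0.0568 to 0.14).

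Of 12 prostaglandin and leukotriene enzymes, 2 rose (16.7%) and 1 fell, beside 3.24% higher and 2.17% lower of all tested genes. ALOX5AP, the protein that presents arachidonic acid to 5-lipoxygenase, was at 136, 93.9 and 110 TPM against 69.6, 68.4 and 60.7 TPM (log2 change 0.84, edgeR adjusted p = 0.00884, and 0.0513 without shNT replicate 3). PTGS1, a cyclooxygenase, also rose (0.34) and PLA2G4A, the phospholipase that releases arachidonic acid, fell (-0.76), with edgeR adjusted p of 0.0457 and 0.0412 that rose to between 0.0684 and 0.178 without any 1 of the shNT replicates, shNR4A3 replicate 1 or shNR4A3 replicate 3. With the block 3 of these enzymes were higher and 2 lower, beside 10.5% and 8.18% of all tested genes. Of 24 glycolysis genes HK1 rose by 0.45 (edgeR adjusted p = 0.0251, and 0.0881 to 0.12 without shNT replicate 2 or 3 or shNR4A3 replicate 1 or 3). This 1 call was 4.17% of the list, near the 3.24% of all tested genes. Under the block 5 glycolysis genes were higher and 1 lower. None of the 13 mitochondrially encoded protein genes was called by edgeR or DESeq2, and 3 had an unadjusted p under 0.05. With the block 7 were higher, beside 10.5% of all tested genes.

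CCND1, which encodes cyclin D1, was at 38.8, 39.7 and 38.7 TPM in shNR4A3 and at 19.3, 19.1 and 17.6 TPM in shNT. It was 2.18-fold higher with tight replicates (log2 change 1.12 ± 0.09, edgeR adjusted p = 3.75e-05). Of 34 tested cell cycle and replication genes, AURKB and CDKN1A, which encode a mitotic kinase and the inhibitor p21, were the other members called, at 0.44 and 0.34 on the log2 scale (edgeR adjusted p = 0.0346 and 0.0424). Both were not called without any 1 of the shNT replicates or shNR4A3 replicate 3, AURKB also without shNR4A3 replicate 2 and CDKN1A also without shNR4A3 replicate 1 (adjusted p 0.0556 to 0.147). The list had 8.82% called higher, beside 3.24% of all tested genes, and none fell. With the block 5 were higher and 2 lower, beside 10.5% and 8.18% of all tested genes.

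**Figure D4:**
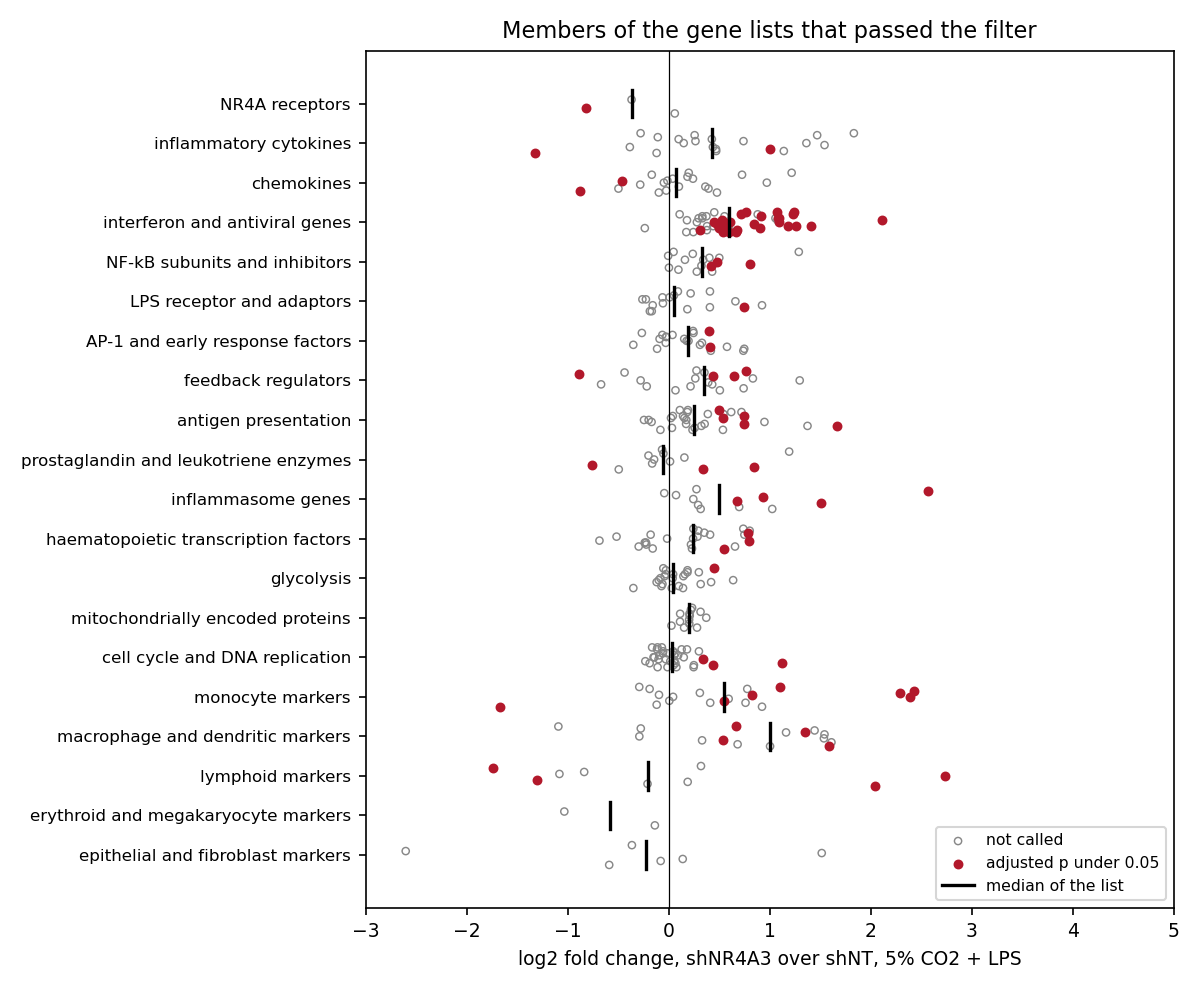
Log2 fold change of shNR4A3 over shNT with LPS at 5% CO2 for each tested member of the 20 gene lists, filled red where the edgeR adjusted p was under 0.05, with the median of each list as a black bar. The interferon and antiviral list holds 27 red points, all to the right of 0, and the mitochondrial, erythroid and epithelial lists hold none.

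Some of the largest changes were in genes outside these pathways. PRDM6, a transcriptional repressor of smooth muscle and endothelial lineages, was at 8.26, 11.3 and 7.77 TPM in shNR4A3 and at 1.03, 0.91 and 0.74 TPM in shNT, which is 10.6-fold higher (log2 change 3.40 ± 0.17, edgeR adjusted p = 1.63e-06). NCAM1, a neural and natural killer cell adhesion molecule, was at 6.46, 10.3 and 9.74 TPM against 1.44, 1.19 and 1.48 TPM (log2 change 2.74 ± 0.18, edgeR adjusted p = 1.16e-05). IGFBP7, a secreted binding protein of insulin-like growth factors, was at 235, 260 and 258 TPM against 56.9, 71.6 and 62.4 TPM (log2 change 2.04 ± 0.09, edgeR adjusted p = 6.32e-07). No library of one line reached the range of the other for any of these genes, as was so for all 958 called genes. CACNA2D1, a calcium channel subunit, and the long non-coding RNA LINC00461 had the largest log2 changes, 4.55 and 3.61, but from few reads: CACNA2D1 had 0, 3 and 5 in shNT and 44, 61 and 65 in shNR4A3, and LINC00461 had 3, 2 and 11 against 63, 56 and 53. ABCC13, a transporter pseudogene, rose by 2.41. CLEC10A, a lectin of dendritic cells and macrophages, and C22orf42 had changes of 2.63 and 2.85 that were not called without shNT replicate 2, shNT replicate 3, shNR4A3 replicate 1 or shNR4A3 replicate 3, C22orf42 also without shNT replicate 1 (adjusted p 0.0539 to 0.144). A further gene among the 10 largest had no symbol.

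Among the lower genes, CKAP4 combined abundance with size. This endoplasmic reticulum membrane protein, which also acts as a cell surface receptor, was at 48.1, 64.7 and 48.3 TPM in shNR4A3 and at 393, 466 and 408 TPM in shNT. It was 7.60-fold lower (log2 change -2.93 ± 0.11, edgeR adjusted p = 1.55e-07), the smallest adjusted p of the 79 genes selected for naming. FIGN, a microtubule-severing ATPase, was at 0.15, 0.34 and 0.42 TPM against 4.50, 5.51 and 4.40 TPM (log2 change -3.91 ± 0.25, edgeR adjusted p = 1.04e-05). BEX1, a small adaptor best known in neurons, fell by 2.86 on the log2 scale, from 16.3, 21.1 and 22.9 TPM to 2.57, 3.35 and 2.13 TPM. MCF2, a guanine nucleotide exchange factor, fell by 3.75, TMEM176B, an endosomal membrane protein of dendritic cells, by 3.72, IGSF10 by 2.80 and the pseudogene NUDT16L2P by 4.04, with edgeR adjusted p between 0.00025 and 0.00128. FGFBP2, a secreted protein of cytotoxic lymphocytes, had a log2 change of -2.60 that was not called without shNT replicate 3, shNR4A3 replicate 1 or shNR4A3 replicate 3 (adjusted p 0.0565, 0.0549 and 0.0543).

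CLDN3, which encodes the tight junction protein claudin-3, had 8, 9 and 15 reads in shNT and 0 in each shNR4A3 library. It was at least 9.29-fold lower, counted against a floor of 3 reads over the shNR4A3 group, with an edgeR adjusted p of 0.0116. With LPS at 10% CO2 its log2 change was -0.31 (edgeR adjusted p = 0.807), and without LPS it was -1.25 (edgeR adjusted p = 0.176). LINC00159 had 6, 8 and 10 reads in shNT against 1, 0 and 1, a ratio of 10.4 with a 95% exact counting interval of 2.59 to 91.2. That interval covers counting error only, and its call was lost when any 1 of the 6 libraries was left out (adjusted p 0.0537 to 0.114).

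Lymphoid markers changed in both directions, with 2 higher and 2 lower, beside 3.24% and 2.17% of all tested genes. Of 9 tested, NCAM1 and CD5 rose, CD5 from 1.95, 1.79 and 1.35 TPM to 7.06, 5.32 and 7.59 TPM (log2 change 2.04, edgeR adjusted p = 0.000529). PAX5, the B cell transcription factor, was at 0.85, 1.74 and 1.36 TPM in shNR4A3 and 3.47, 6.06 and 4.10 TPM in shNT (log2 change -1.74, edgeR adjusted p = 0.00289). TRAC, the T cell receptor alpha constant gene, had a log2 change of -1.30 (edgeR adjusted p = 0.04) that was not called without any 1 of the shNT replicates, shNR4A3 replicate 1 or shNR4A3 replicate 3 (adjusted p 0.0585 to 0.171). The part of other cell types in these changes was not tested beyond the summed levels given above.

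A separate view came from genes that LPS induced in shNT cells at 10% CO2, in libraries that the comparison does not use. There, 619 genes rose at least 4-fold. In shNR4A3 against shNT with LPS at 5% CO2, 75 of them were higher (12.1%, beside 3.24% of all tested genes) and 6 lower (0.969%, beside 2.17%), and the median log2 change of the 619 was 0.54, with 507 above 0. With the replicate block 273 were higher and 30 lower, beside 10.5% and 8.18% of all tested genes. The higher count was 28 and 41 without shNT replicate 2 or 3, 44 and 35 without shNR4A3 replicate 1 or 3, and 221 without shNR4A3 replicate 2.

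The 6 lower genes were NR4A3, LIF, CCN2, FOXQ1, TCIM and NCOA7. These and the other LPS-induced genes of this paragraph and the next were singled out after their values were seen. CCN2, a matrix protein also known as connective tissue growth factor, was at 725, 655 and 547 TPM in shNR4A3 and at 1841, 1720 and 1341 TPM in shNT, without overlap (log2 change -1.29 ± 0.13, edgeR adjusted p = 0.000511). FOXQ1, a forkhead transcription factor, was at 1.12, 1.64 and 2.25 TPM against 4.60, 8.12 and 7.87 TPM (log2 change -1.97, edgeR adjusted p = 0.00362). TCIM, a small regulator of transcription, and NCOA7, an endosomal and nuclear receptor coactivator protein, had log2 changes of -1.94 and -0.35 (edgeR adjusted p = 0.0407 and 0.0414). Both were not called without any 1 of the shNT replicates or shNR4A3 replicate 3, TCIM also without shNR4A3 replicate 1 and NCOA7 also without shNR4A3 replicate 2 (adjusted p 0.0566 to 0.152).

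The higher genes included regulators as well as effectors. BTG2, an antiproliferative factor, was at 2276, 2134 and 2198 TPM in shNR4A3 and 1338, 1478 and 1524 TPM in shNT (log2 change 0.66 ± 0.09, edgeR adjusted p = 0.00138). KDM6B, a histone H3 lysine demethylase induced by LPS, was at 108, 112 and 106 TPM against 74.4, 77.2 and 55.6 TPM (log2 change 0.72 ± 0.10, edgeR adjusted p = 0.00217). BIRC3, an inhibitor of apoptosis, was at 56.8, 48.1 and 64.7 TPM against 35.6, 31.8 and 32.9 TPM (log2 change 0.82, edgeR adjusted p = 0.00362). In all of these the lines were apart without overlap. TLR2, the receptor for bacterial lipoproteins, rose by 0.54, PTGER2, a receptor of prostaglandin E2, by 1.19 and IL7, a lymphocyte growth factor, by 1.94 (edgeR adjusted p = 0.00711, 0.005 and 0.00777). ICAM1, the adhesion molecule for leukocyte integrins, was at 597, 403 and 561 TPM against 334, 244 and 268 TPM (log2 change 0.95, edgeR adjusted p = 0.0444), and its adjusted p was 0.116, 0.155, 0.117 and 0.124 without shNT replicate 2, shNT replicate 3, shNR4A3 replicate 1 or shNR4A3 replicate 3.

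The same lines were compared with LPS at 10% CO2, in 6 other libraries. There, 2572 genes were called (14.5%), 1294 higher (7.3%) and 1278 lower (7.21%). Of the 958 genes called at 5% CO2, 799 were called in the same direction at 10% CO2, which is 83.4% of the first set and 31.1% of the second, and 952 had the same sign. CKAP4 was at 47.6, 62.5 and 52.9 TPM in shNR4A3 and 354, 329 and 388 TPM in shNT at 10% CO2 (log2 change -2.74, edgeR adjusted p = 5.93e-10), close to the -2.93 at 5% CO2. IFI27 changed by 2.46, LYZ by 2.15, PRDM6 by 3.22, LIF by -1.09 and IL6 by 1.81 (edgeR adjusted p = 3.28e-08, 8.39e-06, 1.03e-08, 5.08e-05 and 0.0264). Of the 47 interferon and antiviral genes 34 were higher and none lower, beside the 7.3% and 7.21% of all tested genes. TRAC had a log2 change of 0.36 beside -1.30 at 5% CO2 (edgeR adjusted p = 0.659), and the difference was not tested. With the replicate block 4409 genes were called. The 2572 calls were 1269 without shNT replicate 3 at 10% CO2, and the 799 shared calls were 390 and 467 without shNT replicate 2 or 3 at 5% CO2, 495 and 427 without shNR4A3 replicate 1 or 3, and 1202 without shNR4A3 replicate 2.

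Without LPS at 5% CO2, 1097 genes were called (6.19%), 596 higher (3.36%) and 501 lower (2.83%). Of the 958 genes called with LPS, 542 were called in the same direction without it, which is 56.6% of the first set and 49.4% of the second, and 908 had the same sign. With the replicate block 2299 genes were called. The 1097 calls were 667 and 668 without shNT replicate 2 or 3 and 710 and 726 without shNR4A3 replicate 1 or 3. The shared set was 312 and 335 without shNT replicate 2 or shNR4A3 replicate 3 of the LPS libraries. In all 3 settings 484 genes were called in 1 direction. LYZ (2.26), IFI27 (2.22), CKAP4 (-3.22), FIGN (-4.01), CCND1 (0.94) and NCAM1 (2.54) had log2 changes without LPS near those with it. Of the 47 tested interferon genes 14 were higher and 1 lower without LPS, beside the 3.36% and 2.83% of all tested genes. The median log2 change of the list was 0.33 without LPS beside 0.59 with it.

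**Figure D5:**
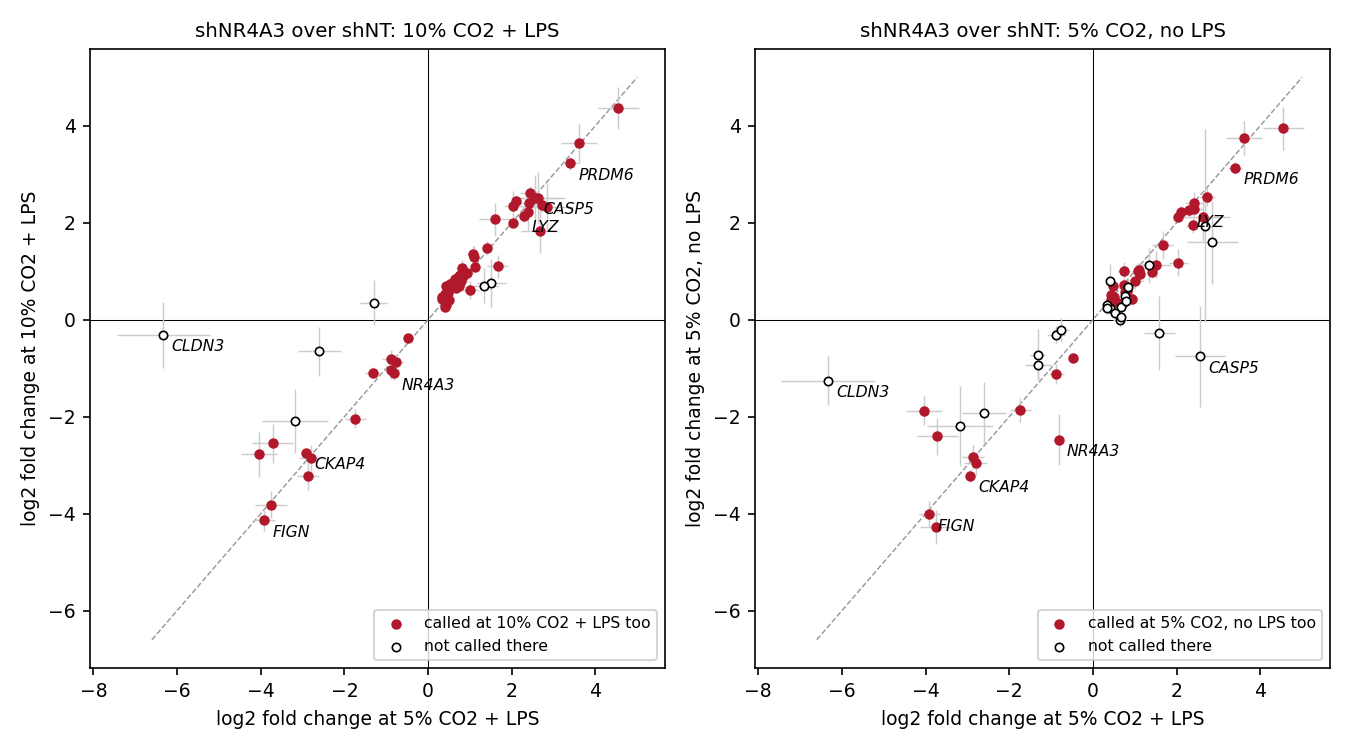
Log2 fold change of shNR4A3 over shNT for the called genes selected for naming, with LPS at 5% CO2 on the x axis and with LPS at 10% CO2 (left) or without LPS at 5% CO2 (right) on the y axis, with standard errors as grey lines and equal values on the dashed line. Filled points were called in both settings. CLDN3, fitted from 0 reads in shNR4A3, lies far from the line in both panels and NR4A3 in the right panel only, at -2.47 without LPS beside -0.82 with it.

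The difference between the effects with and without LPS was tested directly as an interaction over the 12 libraries at 5% CO2. By edgeR no gene was called (0.0%), 854 had an unadjusted p under 0.05, and DESeq2 called 8. With the replicate block edgeR called 17, though whether replicate numbers pair these libraries is unsettled. IL1B was among the 17, with a log2 change of 0.44 with LPS and -0.39 without (blocked interaction 0.80, edgeR adjusted p = 0.00644). Of the 415 genes called with LPS but not without it, 366 had the same sign without LPS and 126 had an unadjusted interaction p under 0.05. KDM6B was among the 8 called by DESeq2: its log2 change was 0.72 with LPS and -0.12 without, an interaction of 0.84 (DESeq2 adjusted p = 0.00673). For CXCR4, the receptor of the chemokine CXCL12, it was -0.53 with LPS and 1.03 without, an interaction of -1.56 (DESeq2 adjusted p = 0.00837). KDM6B and CXCR4 were singled out after their values were seen. CD83 changed by 0.66 with LPS and 0.06 without it (interaction 0.61, unadjusted p = 0.00111, edgeR adjusted p = 0.653). Without shNR4A3 replicate 2 of the LPS libraries, edgeR called 39 genes.

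The shNR4A2 line, given LPS at 5% CO2 like the others, was tested directly against shNR4A3. By edgeR 398 genes were called (2.25%), 182 higher and 216 lower in shNR4A3, and 3810 with the replicate block, since same-numbered libraries of these lines also deviated together. The count was 204, 259 and 264 without shNR4A2 replicates 1, 2 and 3, and 129, 233 and 134 without shNR4A3 replicates 1, 2 and 3. NR4A3 was at 33.0, 32.8 and 36.1 TPM in shNR4A2, above all shNR4A3 libraries (log2 change of shNR4A3 over shNR4A2 -0.97 ± 0.10, edgeR adjusted p = 0.00132). NR4A2 was at 20.5, 28.3 and 14.8 TPM in shNR4A2 and 1.15 higher on the log2 scale in shNR4A3 (edgeR adjusted p = 0.034).

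Of the 958 genes called against shNT, 145 were also called against shNR4A2 (15.1%), 137 with the same sign and 8 with the opposite sign. With the block it was 1411 of 3312 (42.6%), 1182 with the same sign and 229 with the opposite sign. The blocked test against shNR4A2 called 3810 of all 17720 tested genes. Of the 47 interferon and antiviral genes, 2 were higher than in shNR4A2 (beside 1.03% of all tested genes) and none lower (beside 1.22%), with a median log2 change of 0.35. With the block 22 were higher and 1 lower, beside 3810 of all 17720 tested genes called in either direction. IFI27, one of the 2, was at 7.16, 7.55 and 10.5 TPM in shNR4A2, all below the shNR4A3 libraries (log2 change 1.90, edgeR adjusted p = 0.000346). PRDM6 at 0.78, 0.91 and 0.82 TPM, FIGN at 4.72, 6.48 and 4.47 TPM and IGFBP7 at 83.8, 94.5 and 81.0 TPM in shNR4A2 were also apart from shNR4A3 (log2 change 3.44, -4.08 and 1.54, edgeR adjusted p = 1.15e-05, 8.47e-05 and 1.74e-05). CKAP4 was at 172, 259 and 186 TPM in shNR4A2, between the other lines, and 1.93 lower on the log2 scale in shNR4A3 (log2 change -1.93, edgeR adjusted p = 0.000101).

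Other genes that rose against shNT were not called against shNR4A2 without the block. NCAM1 was at 8.66, 12.8 and 10.7 TPM in shNR4A2 beside 6.46, 10.3 and 9.74 TPM in shNR4A3. CCND1 was at 47.6, 43.0 and 40.6 TPM beside 38.8, 39.7 and 38.7 TPM, and LYZ at 522, 497 and 507 TPM beside 844, 634 and 719 TPM. For NCAM1 and CCND1 the log2 changes of shNR4A3 over shNR4A2 were -0.28 and -0.16 (edgeR adjusted p = 0.443 and 0.501), and for LYZ 0.54 (edgeR adjusted p = 0.084). NCAM1 and LYZ were called with the block. The genes with the smallest adjusted p in this test were not all changed in shNR4A3: AKR1C2, an aldo-keto reductase with close paralogs, SEZ6L2, a neuronal membrane protein, and HPRT1, a purine salvage enzyme, differed between the hairpin lines by -3.80, 1.81 and 2.18 on the log2 scale, while their log2 changes of shNR4A3 over shNT were -0.15, 0.03 and 0.10 (edgeR adjusted p = 0.48, 0.874 and 0.566).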

How the data were processed

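The authors trimmed reads with Trimmomatic v0.36, aligned them to GRCh38 with STAR v2.5.2b and made the deposited counts with featureCounts of Subread v1.5.2, as whole numbers per gene without normalization. Which annotation release and strand setting were used, and the treatment of reads shared by near-identical genes are not given in the sources used here. Of 57500 gene IDs, 56410 (98.1%) matched a symbol. Groups came from the sample titles. TPM was computed from the deposited counts and gene lengths.

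Genes were kept by edgeR's filterByExpr over the 36 libraries and 12 conditions (minimum count 10, minimum total 15), leaving 17720. Counts were scaled by TMM and tested two-sided with edgeR 4.0.16 (R 4.3.3, quasi-likelihood F test, robust), with Benjamini-Hochberg adjustment over all genes tested and a threshold of 0.05. DESeq2 1.42.0 and the other settings in the closing section were alternatives. The interaction used a design with both factors. Each standard error was taken as the size of the log2 change over the root of its F statistic. The code was tested on simulated data. With 3 libraries against 3, an exact permutation test of a single gene cannot go below p = 0.1. The replicates are described as individual experiments, but nothing says whether cultures were separate for each, so p-values measure the spread between these libraries.

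Deviations from group means of same-numbered libraries correlated at 0.118 to 0.233 in shNR4A3 against shNT with LPS at 5% CO2 and at 0.248 to 0.401 against shNR4A2, every pair being over 0.1, so blocked values are given there. Over all tested genes the other comparisons did not meet that rule (-0.0728 to 0.0958 at 10% CO2, 0.0344 to 0.143 without LPS, -0.0219 to 0.246 for the interaction). Over genes with a mean CPM of at least 10, every pair met it at 10% CO2 (0.416 to 0.473) and without LPS (0.317 to 0.564) but not for the interaction (0.0728 to 0.654), so whether the numbers pair those libraries is unsettled.

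Genes were named by rule: the NR4A genes, 7 core LPS products, up to 4 called genes of each of 20 lists by adjusted p, the 10 largest changes in each direction with at least 1 TPM and no overlap, and the 5 smallest adjusted p in each further test. Some members of the lists are not reported here. The members and lists were chosen with earlier results of these data known. Sequences are from RefSeq (GRCh38.p14).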

Additional observations from a re-analysis of the deposited data

How the results depend on the processing

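Of 66 called named genes with a symbol, 37 stayed called under every alternative, and NR4A3 stayed called in all. For shNR4A3 against shNT with LPS at 5% CO2, the 958 calls became 1737 without a filter, 3312 with the replicate block, 1727 in 1 fit to all 36 libraries, 354 at an adjusted p under 0.01, and 419 to 1649 leaving out 1 library. Among the named genes the block changed no other call in this comparison than those given above. For the comparison with shNR4A2, the 398 calls became 712 with DESeq2, 1113 without a filter, 3810 with the replicate block, 1441 in 1 fit, 120 at 0.01, and 129 to 264 leaving out 1 library. At 10% CO2 the counts were 4409 with the replicate block, 1138 at 0.01, 1404 with a fold of at least 1.4, and 1269 to 2100 leaving out 1 library. Without LPS they were 2299 with the replicate block, 491 at 0.01, and 667 to 1014 leaving out 1 library. The interaction gave 8 genes with DESeq2, 85 without a filter, 17 with the replicate block, and 0 to 39 leaving out 1 library. Whether replicate numbers pair the libraries at 10% CO2 and without LPS depended on the genes used for the check.

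LPS-induced genes called higher numbered 134 with DESeq2, 160 without a filter, 273 with the replicate block, 153 in 1 fit, 116 at a minimum log2 induction of 1, and 28 to 221 leaving out 1 library. Those called lower numbered 15 without a filter, 30 with the block, 10 in 1 fit, 14 at a minimum of 1, and 4 to 7 leaving out 1 library. Calls shared with 10% CO2 were 1372 without a filter, 2550 with the block, 1238 in 1 fit, and 390 to 1202 leaving out 1 library. Calls shared with the cells without LPS were 847 without a filter, 1454 with the block, and 312 to 632 leaving out 1 library. Interferon genes called higher numbered 15 to 32 leaving out 1 library, and 1 was lower with the block.

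The sign of 4 genes that were not called turned: NR4A1 (-0.084 to 0.22 leaving out 1 library, below 0 without shNT replicate 3), CXCL8 (-0.29 to 0.13, above 0 without shNT replicate 1 or shNR4A3 replicate 2 or 3), CCL2 (-0.63 to 0.015, above 0 without shNT replicate 1) and SEZ6L2 (-0.027 with library size only). Apart from the smaller numbers of samples and thresholds that define some of these settings, the cause of each change was not tested. With 3 libraries per group and 1 line per hairpin, effects of the line and of NR4A3 cannot be told apart, and genes with few reads carry wide errors.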
